A study of Mus musculus with 16 samples.

Results

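The genes described here are the myogenic regulatory factors Myod1, Myf5, Myf6 and Myog, the muscle stem cell factor Pax7, the homeobox gene Six4 and the Mef2 genes Mef2a, Mef2c and Mef2d, as measured in mouse quadriceps. They are 9 genes with 10 probes among 41174 probes, found by matching the accession of each probe on the array to a gene symbol, and 8 of them were tested among 25196 features. Muscle came from mice labelled KLF15 KO (KO), which lack the zinc-finger transcription factor Klf15, and from wild-type mice (WT). Each genotype received an intraperitoneal dose of dexamethasone, a synthetic glucocorticoid, at 2 mg/kg or an equal volume of vehicle, and every sample is labelled 8 h. The groups are KO with dexamethasone, KO with vehicle, WT with dexamethasone and WT with vehicle, with 4 animals each and 1 array per animal, 16 arrays in all. The labels do not say how the Klf15 allele was made, nor the strain, sex or age of the mice, and each array holds RNA of whole muscle with all its cell types. The comparisons address how muscle transcripts respond to the glucocorticoid and whether that depends on Klf15.

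The 4 myogenic regulatory factors are basic helix-loop-helix proteins that bind E-box sequences as heterodimers with E-proteins. Myod1 and Myf5 commit cells to the muscle lineage, Myog drives the differentiation of myoblasts, and Myf6 (MRF4) is the member most associated with adult fibres. Pax7 marks satellite cells, the stem cells of muscle, and Six4 belongs to the sine oculis homeobox proteins, which bind MEF3 sites in muscle genes with Eya cofactors. The Mef2 genes encode MADS-box factors that act with the myogenic factors on muscle genes and are held in check by class IIa histone deacetylases.

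All levels below are log2 of the processed spot signal relative to the 75th percentile of the same array, so 0 is the level of a probe at that percentile and 1 unit is a doubling of signal. Levels of different probes are not set against each other, because probes differ in brightness. Precision is limited by having only 4 arrays in a group. In each group the arrays are listed in the order of their replicate numbers. A difference is called when its adjusted p is under 0.05 in limma, a linear model fitted to all features, with Benjamini-Hochberg adjustment over all 25196 of them.

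Some facts of the whole series bear on these genes. Klf15 averaged 0.51 ± 0.19 in KO dexamethasone muscle, against 4.30 ± 0.36 in WT dexamethasone muscle, and -0.68 ± 0.50 in KO vehicle muscle, against 3.29 ± 0.40 in WT vehicle muscle (log2 level, SD, n = 4 each). Both of its probes were lower on every KO array than on any WT array, although the labels do not place the altered part of the gene relative to these probes. Fkbp5, a classical glucocorticoid-induced gene, rose 6.74-fold in KO and 7.90-fold in WT muscle with dexamethasone. All 12 fast skeletal muscle markers were well above background on all 16 arrays. Neutrophil markers stood high on KO dexamethasone array 1 and WT dexamethasone array 3, where the list median exceeded the 16-array mean by 5.72 and 7.11 log2 units. Erythroid markers were also highest on these arrays, with list medians 1.44 and 1.83 above that mean. The summed level of the 9 neutrophil markers tested ranged from 0.278 to 97.5 in KO dexamethasone, 0.436 to 0.623 in KO vehicle, 0.276 to 240 in WT dexamethasone and 0.309 to 0.712 in WT vehicle muscle, as multiples of the 75th percentile. Each of the 10 neutrophil genes had a probe well above background on at least 3 arrays. The first principal component, with 34.2% of the variance, set 4 arrays apart: KO dexamethasone 2, KO vehicle 1 and WT vehicle 3, which are all the arrays of slide 7, and WT dexamethasone 1, alone on slide 2. Their scores lay between 94.0 and 101.5, against -84.3 to 10.8 on the other 12 arrays. The slides, 8 in number, held 1 to 3 arrays each. The quality check of the image extraction marked 3 arrays for evaluation, WT dexamethasone 1 and KO dexamethasone 2 and 4. WT dexamethasone 3 alone was scanned on a second day. All of these are dexamethasone arrays.

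Dexamethasone raised Myf6 in both genotypes, and the Mef2 gene called lower was Mef2d in KO and Mef2c in WT. In KO muscle Myf6 rose 1.75-fold while Mef2d fell 1.52-fold and Six4 fell 1.46-fold, so 3 of 8 members tested were called, against 10.2% of all features. In WT muscle Myf6 rose 1.71-fold and Mef2c fell 1.48-fold, so 2 of 8 members were called, against 10.7% of all features. These calls were not equally stable: the Mef2c call in WT was lost in 10 alternative fits and the Six4 call in KO in 7. The Mef2d call in KO and the Myf6 call in each genotype were lost in 1 each. Averaged over both genotypes, Myf6 rose and Mef2d and Mef2c fell, which makes 3 of 8 members called, against 17.2% of all features. The median log2 change over the members was -0.34 in KO, 0.02 in WT and -0.15 averaged, against 0.08, -0.08 and -0.02 over all features in the same order. Without adjustment, p was under 0.05 for 3 members in KO (21.1% of all features), 2 in WT (24.2%) and 4 averaged (27.2%). Groups did not overlap for 3 members in KO (15.9% of all features), Myf6, Mef2d and Six4, and for 3 in WT (17% of all features), Myf6, Myog and Mef2c. The KO and WT comparisons share no arrays, and the test of the difference between them called no member.

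**Figure D1:**
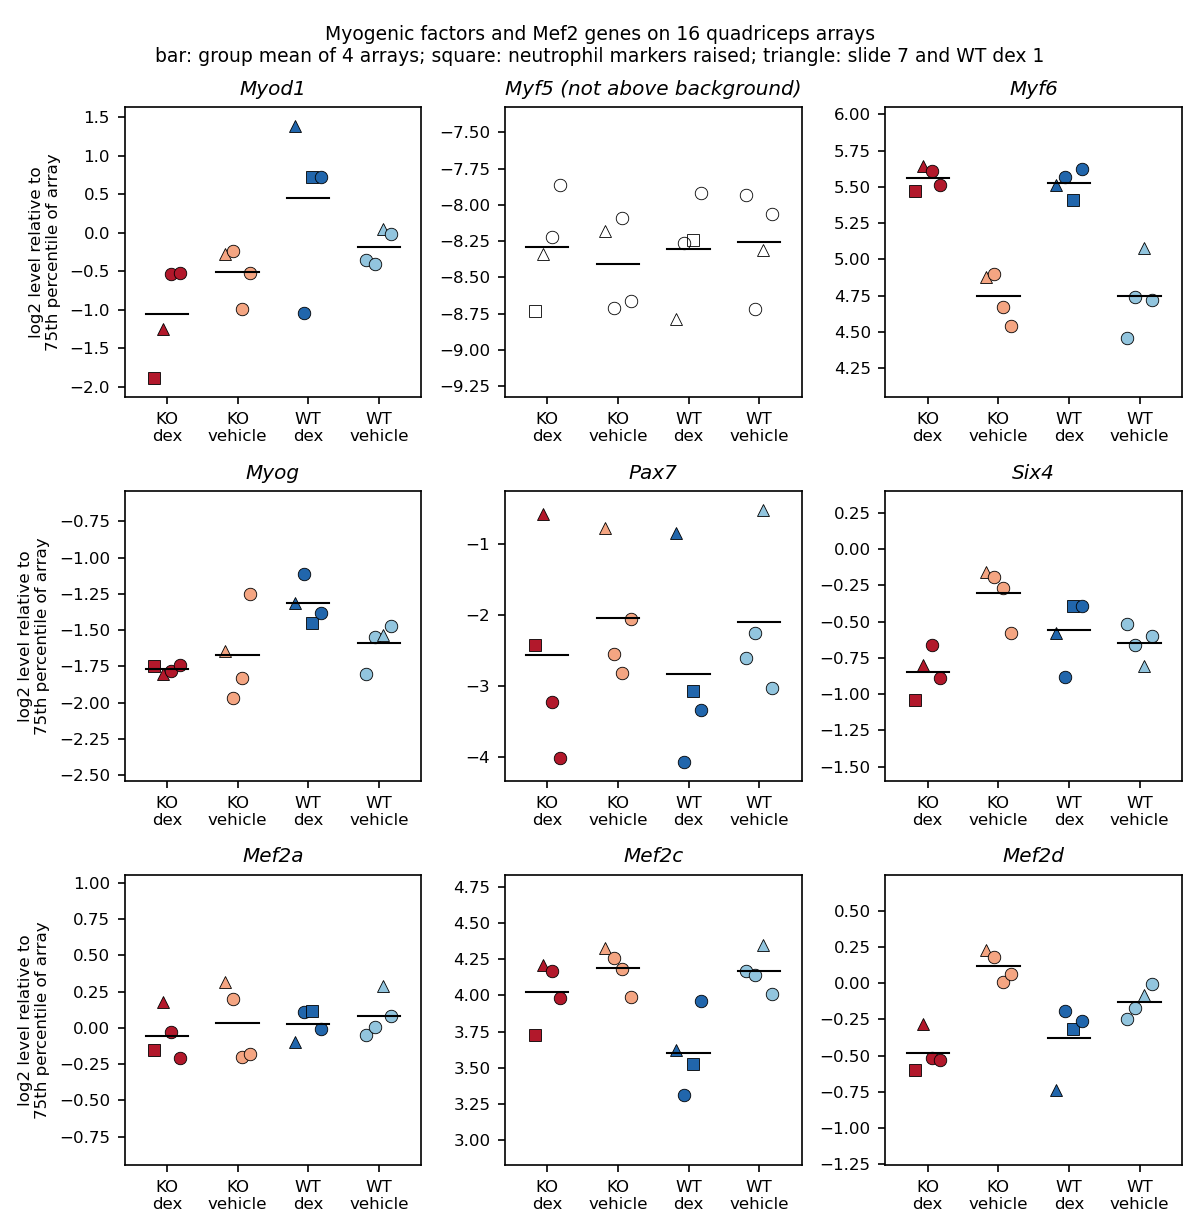
Log2 level of each of the 9 genes on the 16 arrays, relative to the 75th percentile of the array, with a vertical axis of its own in each panel. Points are arrays in the order of replicate numbers and bars are means of 4 arrays, squares mark the arrays with raised neutrophil markers and triangles the arrays of slide 7 and WT dexamethasone 1, and open symbols (Myf5) are not well above background. Every dexamethasone array lies above every vehicle array for Myf6, and the 4 triangles are the highest points for Pax7.

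Myf6 was called in both genotypes. Its levels were 5.47, 5.64, 5.61 and 5.51 on the KO dexamethasone arrays, against 4.88, 4.90, 4.67 and 4.54 on the KO vehicle arrays. The WT arrays read 5.51, 5.57, 5.41 and 5.62 with dexamethasone, against 4.46, 4.74, 5.08 and 4.72 with vehicle. All 8 dexamethasone arrays lay above all 8 vehicle arrays, and the dexamethasone groups were the narrower, with SDs of 0.08 in KO and 0.09 in WT against 0.17 and 0.26 under vehicle. The log2 change was 0.81 (SE 0.12, limma adjusted p = 0.000855) in KO and 0.78 (SE 0.12, adjusted p = 0.00132) in WT, and 0.79 averaged over both (adjusted p = 2.72e-05). Pairs of arrays on the same slide gave 0.93, 0.83 and 0.76 in KO on slides 4, 6 and 7, and 0.85 in WT on slide 5. Leaving out any array kept the change between 0.74 and 0.86 in KO and between 0.68 and 0.89 in WT, with every adjusted p under the threshold. With normexp background correction the changes were 0.79 and 0.70 with adjusted p of 0.0737 and 0.174.

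Myod1, the founding member of the family, varied most among the myogenic factors that were tested and was called in no comparison. Its levels were -1.89, -1.25, -0.54 and -0.52 on the KO dexamethasone arrays, against -0.28, -0.24, -0.99 and -0.52 on the KO vehicle arrays. WT muscle gave 1.39, -1.04, 0.72 and 0.72 with dexamethasone, against -0.36, -0.40, 0.05 and -0.01 with vehicle. WT dexamethasone arrays 1, 3 and 4 lay above all other arrays, and WT dexamethasone array 2 lay below every vehicle array of both genotypes. The log2 change with dexamethasone was -0.54 in KO (SE 0.44, adjusted p = 0.58) and 0.63 in WT (SE 0.44, adjusted p = 0.412). The WT value was -1.03 between the 2 arrays of slide 5 and -0.47 with slide as a fixed block, so its sign depended on the arrays used. Without WT dexamethasone array 2 the WT change was 1.12 (adjusted p = 0.0429). That array was the only WT dexamethasone array on a slide with a vehicle array, so without it no slide holds both WT groups.

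The genotype difference of Myod1 under dexamethasone was the widest of any member. KO dexamethasone muscle averaged -1.05 ± 0.65, against 0.45 ± 1.04 in WT dexamethasone muscle (log2 level, SD, n = 4 each). This is a 2.82-fold lower mean in KO, a log2 difference of -1.49 (95% interval -2.43 to -0.55) that missed the threshold at an adjusted p of 0.116. The groups overlapped, because WT dexamethasone array 2 fell among the KO arrays. Without that array the difference was -1.99 (adjusted p = 0.00734), without slide 7 and WT dexamethasone array 1 it was -1.11 (adjusted p = 0.412), and without the neutrophil-marked arrays it was -1.12 (adjusted p = 0.452). On slide 8, which held an array of each group, it was -1.25, and with slide as a fixed block it was -0.69 (adjusted p = 0.627). Under vehicle the difference was -0.33 (adjusted p = 0.909).

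In each dexamethasone group, the array with the lowest Myod1 had the highest list median of slow-fibre contractile genes, but in KO it did not have their highest summed level. In neither vehicle group did the array with the lowest Myod1 have the highest list median. Those arrays, KO vehicle 3 and WT vehicle 2, had medians of -0.17 and -1.07. The list median of 10 slow-fibre genes, as deviation from the mean of all arrays, was 1.31 on KO dexamethasone array 1 and 1.92 on WT dexamethasone array 2. By summed level KO dexamethasone array 4, which had the highest Myod1 of its group, was above array 1, at 393 against 374 times the 75th percentile. KO dexamethasone array 1 is also a neutrophil-marked array. The slow-fibre medians ranged from -0.87 to 1.31 in KO dexamethasone, -0.96 to 0.89 in KO vehicle, -0.28 to 1.92 in WT dexamethasone and -1.39 to 0.70 in WT vehicle muscle. All 10 slow-fibre genes were well above background on all arrays, their summed level ranged from 269 to 393, 165 to 321, 260 to 440 and 213 to 325 times the 75th percentile in the same groups, and none was called in any comparison. The part of fibre-type content in the Myod1 values was not tested.

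**Figure D2:**
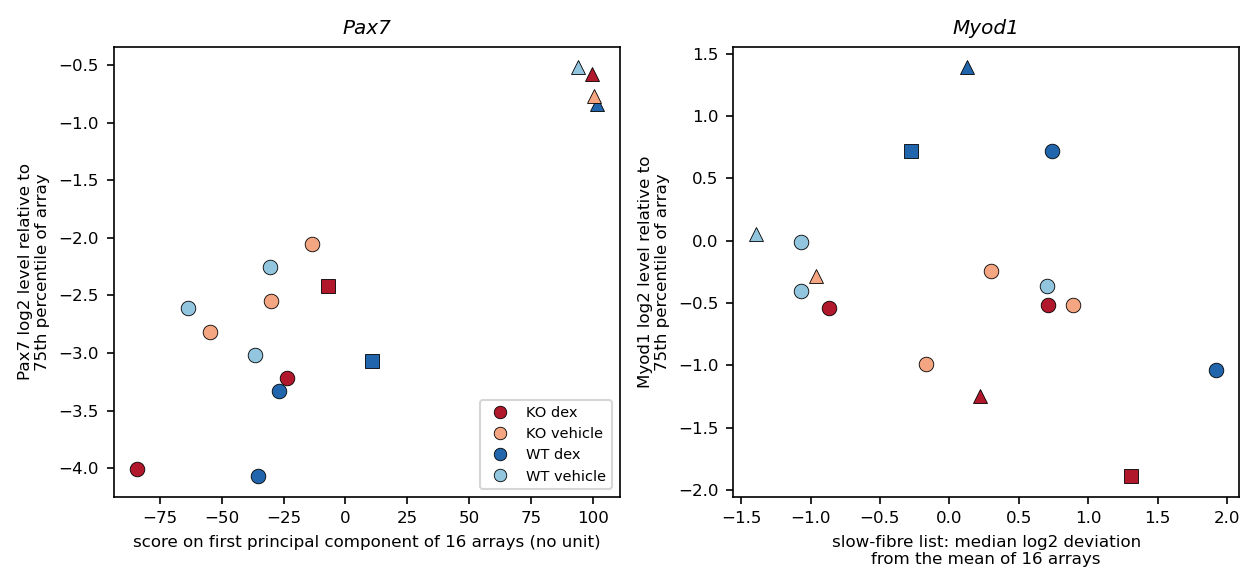
Left, Pax7 log2 level on each of 16 arrays against the array's score on the first principal component. Right, Myod1 log2 level against the median log2 deviation of 10 slow-fibre genes; colours are groups, squares the arrays with raised neutrophil markers and triangles slide 7 and WT dexamethasone 1. The 4 arrays with scores of 94.0 or more hold the 4 highest Pax7 levels, and the arrays with slow-fibre medians of 1.31 and 1.92 hold low Myod1 levels. KO dexamethasone 4 and WT dexamethasone 4, with medians of 0.71 and 0.74, hold Myod1 levels of -0.52 and 0.72.

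Myog, which drives differentiation and is induced in regenerating and denervated muscle, was called in no comparison. Its levels were -1.75, -1.80, -1.78 and -1.74 on the KO dexamethasone arrays, against -1.64, -1.97, -1.83 and -1.25 on the KO vehicle arrays. In WT the levels were -1.31, -1.11, -1.45 and -1.38 with dexamethasone, against -1.80, -1.55, -1.53 and -1.47 with vehicle. All 4 WT dexamethasone arrays lay above all WT vehicle arrays, and all 4 also lay above every KO dexamethasone array, which had a range of only 0.06. Dexamethasone gave a log2 change of -0.10 in KO (SE 0.14, adjusted p = 0.802) and 0.28 in WT (SE 0.14, adjusted p = 0.24). KO against WT under dexamethasone gave -0.45 (95% interval -0.75 to -0.16, adjusted p = 0.13), and KO against WT under vehicle gave -0.08 (adjusted p = 0.941). The difference under dexamethasone passed the threshold without KO vehicle array 4 (adjusted p = 0.0461) and in the deposited log2 values (-0.49, adjusted p = 0.048), and it was -0.40 within slide 8. KO vehicle array 4 is in neither group of this difference, so leaving it out changed the estimate of spread and not the difference. The WT change with dexamethasone passed with median scaling (0.52, adjusted p = 0.0348).

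Myf5, which acts early in muscle commitment, was not well above background on any of the 16 arrays, and it was not tested. Its signal ranged from -8.73 to -7.86 in KO dexamethasone, -8.71 to -8.09 in KO vehicle, -8.79 to -7.92 in WT dexamethasone and -8.72 to -7.93 in WT vehicle muscle. These values give only an upper bound for Myf5, and the ranges of all 4 groups overlapped.

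Pax7 differed among arrays more than between groups. Its levels were -2.42, -0.58, -3.22 and -4.01 on the KO dexamethasone arrays, against -0.77, -2.55, -2.82 and -2.05 on the KO vehicle arrays. WT levels were -0.84, -4.07, -3.07 and -3.33 with dexamethasone, against -2.61, -2.25, -0.52 and -3.02 with vehicle. A single array in each group carried the highest value, and those 4 arrays are the ones set apart by the first principal component: their Pax7 levels ran from -0.84 to -0.52, against -4.07 to -2.05 on the other 12. Dexamethasone gave -0.51 in KO (SE 0.83, adjusted p = 0.826) and -0.73 in WT (SE 0.83, adjusted p = 0.631). Without the 4 arrays these were -0.74 (adjusted p = 0.417) and -0.87 (adjusted p = 0.257), and KO against WT under dexamethasone was 0.27 in both settings. Within slides the KO change was -0.37, -1.19 and 0.19 on slides 4, 6 and 7, and the WT change was -1.06 on slide 5. The median deviation of 15 satellite cell markers, Pax7 among them, was 0.00, 0.25, -0.13 and 0.14 on KO dexamethasone 2, KO vehicle 1, WT dexamethasone 1 and WT vehicle 3, against -0.21 to 0.14 on the other 12 arrays, so the ranges overlapped.

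Six4 fell with dexamethasone in KO and not in WT by the test of each. Its levels were -1.04, -0.80, -0.66 and -0.89 on the KO dexamethasone arrays, against -0.16, -0.19, -0.27 and -0.58 on the KO vehicle arrays. The WT arrays read -0.58, -0.88, -0.39 and -0.39 with dexamethasone, against -0.52, -0.66, -0.81 and -0.60 with vehicle. The KO groups did not overlap, and the KO vehicle group was the highest of the 4. The log2 change was -0.55 in KO (SE 0.13, adjusted p = 0.0171) and 0.09 in WT (SE 0.13, adjusted p = 0.74). Its interaction, the KO response minus the WT response, was -0.63 (SE 0.19), with an unadjusted p of 0.00481 and an adjusted p of 0.247, so the difference between genotypes did not pass. Within slides 4, 6 and 7 the KO change was -0.46, -0.61 and -0.64. The KO call was lost without KO dexamethasone array 1 (-0.48, adjusted p = 0.0537) or without KO vehicle array 1 (-0.50, adjusted p = 0.0572) or 2 (-0.51, adjusted p = 0.0558), and without the neutrophil-marked arrays (-0.48, adjusted p = 0.0569). It was also lost with median scaling (-0.60, adjusted p = 0.125), with normexp correction (-0.45, adjusted p = 0.32) and without slide 7 and WT dexamethasone array 1 (-0.52, adjusted p = 0.116).

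Among the Mef2 genes, Mef2d fell with dexamethasone in KO muscle. Its levels were -0.60, -0.28, -0.52 and -0.53 on the KO dexamethasone arrays, against 0.23, 0.18, 0.01 and 0.06 on the KO vehicle arrays. WT muscle gave -0.74, -0.19, -0.32 and -0.26 with dexamethasone, against -0.25, -0.17, -0.08 and -0.01 with vehicle. The KO groups did not overlap, and 3 of 4 WT dexamethasone arrays lay below every WT vehicle array. The change was -0.60 in KO (SE 0.12, adjusted p = 0.0053), -0.25 in WT (SE 0.12, adjusted p = 0.227) and -0.43 averaged over both (adjusted p = 0.0029). The interaction was -0.36 (SE 0.17, adjusted p = 0.443). Within slides 4, 6 and 7 the KO change was -0.66, -0.54 and -0.51, and leaving out any array kept it between -0.67 and -0.57. With normexp correction it was -0.57 and missed the threshold (adjusted p = 0.0577). Under vehicle all 4 KO arrays lay above all 4 WT arrays, with a difference of 0.25 (95% interval -0.01 to 0.51, adjusted p = 0.722).

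Mef2c was called in WT, where it fell. Its levels were 3.73, 4.21, 4.17 and 3.98 on the KO dexamethasone arrays, against 4.33, 4.26, 4.18 and 3.99 on the KO vehicle arrays. In WT the levels were 3.62, 3.31, 3.53 and 3.96 with dexamethasone, against 4.17, 4.14, 4.35 and 4.01 with vehicle. The WT groups did not overlap, with WT dexamethasone array 4 at 3.96 next to WT vehicle array 4 at 4.01. The change was -0.17 in KO (SE 0.15, adjusted p = 0.601) and -0.56 in WT (SE 0.15, adjusted p = 0.024), and the interaction was 0.39 (SE 0.21, adjusted p = 0.484). The WT call was lost without WT dexamethasone array 1, 2 or 3 and without WT vehicle array 1, 2 or 3, each left out alone, with adjusted p from 0.0507 to 0.0658 and log2 changes from -0.57 to -0.47. It was also lost under median scaling (-0.32, adjusted p = 0.353), with normexp correction (-0.68, adjusted p = 0.292) and without slide 7 and WT dexamethasone array 1 (-0.50, adjusted p = 0.125). A block for replicate number lost it as well. KO against WT under dexamethasone was 0.42 (95% interval 0.10 to 0.73, adjusted p = 0.202).

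Mef2a was called in no comparison. The brighter of its probes, used for the gene, ranged from -0.21 to 0.18 in KO dexamethasone, -0.20 to 0.32 in KO vehicle, -0.10 to 0.12 in WT dexamethasone and -0.05 to 0.29 in WT vehicle muscle. Its changes with dexamethasone were -0.09 in KO (95% interval -0.38 to 0.20) and -0.05 in WT (95% interval -0.34 to 0.24). The dimmer probe, from -0.88 to -0.07 over all arrays, gave 0.01 in KO and -0.24 in WT, with no call.

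**Figure D3:**
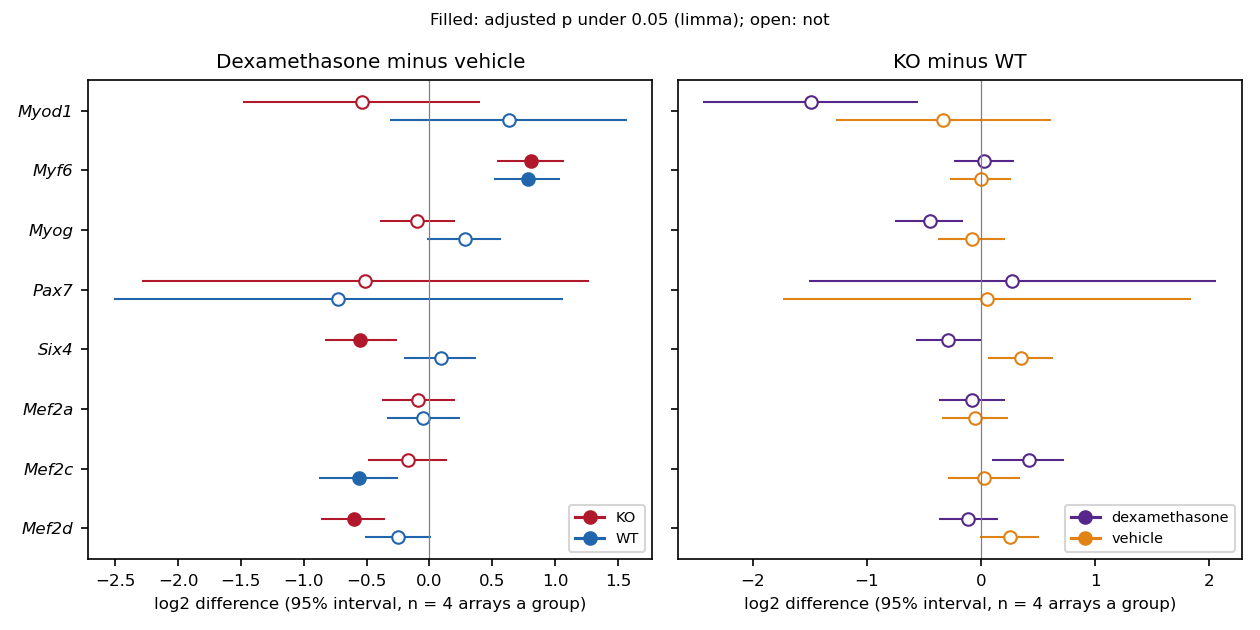
Log2 differences of the 8 tested genes with 95% intervals, n = 4 arrays a group: left, dexamethasone minus vehicle in KO (red) and WT (blue); right, KO minus WT under dexamethasone (purple) and under vehicle (orange). Filled points have an adjusted p under 0.05 in limma. Filled points are Myf6 in both genotypes, Mef2d and Six4 in KO and Mef2c in WT on the left, and none on the right, where the Myod1 interval is -2.43 to -0.55 under dexamethasone.

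No member was called for KO against WT. Under dexamethasone 0 of 8 members passed, against 1.84% of all features, and 4 had an unadjusted p under 0.05 (Myod1, Myog, Mef2c and Six4), against 13.8% of all features. Under vehicle 0 of 8 passed, against 0.262%, and 1 (Six4, log2 difference 0.35, 95% interval 0.06 to 0.63) had an unadjusted p under 0.05, against 7.11%. Averaged over treatments 0 of 8 passed, against 1.33%, and 2 (Myod1, -0.91, and Myog, -0.27) had an unadjusted p under 0.05, against 10.8%. Groups did not overlap for 1 member under dexamethasone, Myog (7.87% of all features), and for 1 under vehicle, Mef2d (6.36%). Myf6 differed by 0.03 (95% interval -0.24 to 0.29) under dexamethasone and 0.00 (95% interval -0.27 to 0.26) under vehicle. For the interaction 0 of 8 members and 0% of all features passed in limma, while 11.5% of all features and 1 member, Six4, had an unadjusted p under 0.05. With slide as a random block 310 features were called for the interaction, and no member was among them.

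The DNA just before the start of transcription is shown for 4 genes, because Mef2d, Mef2c and Six4 were called and because the Myog promoter is a textbook case of a muscle promoter. RefSeq gives these 250 bases on the GRCm38.p6 build, and 7 of 9 members had such an entry, in 10 windows, while Myod1 and Myf6 had none. Where a gene had several windows, the one with the lowest coordinate is printed. Capitals mark E-boxes (CANNTG, bound by the myogenic factors), MEF2 cores (TANNNNTA), the MEF3 motif (TCAGGTT, bound by sine oculis proteins such as Six4) and CACCC boxes (CACCC), which Krüppel-like factors bind. Every motif was searched on both strands.
Myog: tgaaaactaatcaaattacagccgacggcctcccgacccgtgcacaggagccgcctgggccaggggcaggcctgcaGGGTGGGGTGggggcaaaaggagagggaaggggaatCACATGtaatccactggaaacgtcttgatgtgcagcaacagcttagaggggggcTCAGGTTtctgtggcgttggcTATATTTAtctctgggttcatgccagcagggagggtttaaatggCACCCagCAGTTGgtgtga
Six4: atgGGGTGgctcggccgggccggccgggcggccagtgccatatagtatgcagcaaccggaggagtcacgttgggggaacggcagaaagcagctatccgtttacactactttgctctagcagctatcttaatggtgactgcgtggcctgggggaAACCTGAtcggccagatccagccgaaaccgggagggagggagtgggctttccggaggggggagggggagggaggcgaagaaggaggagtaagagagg
Mef2c: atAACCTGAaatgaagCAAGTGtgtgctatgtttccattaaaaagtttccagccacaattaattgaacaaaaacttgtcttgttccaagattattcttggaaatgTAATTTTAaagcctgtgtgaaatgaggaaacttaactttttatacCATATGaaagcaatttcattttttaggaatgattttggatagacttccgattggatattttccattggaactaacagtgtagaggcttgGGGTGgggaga
Mef2d: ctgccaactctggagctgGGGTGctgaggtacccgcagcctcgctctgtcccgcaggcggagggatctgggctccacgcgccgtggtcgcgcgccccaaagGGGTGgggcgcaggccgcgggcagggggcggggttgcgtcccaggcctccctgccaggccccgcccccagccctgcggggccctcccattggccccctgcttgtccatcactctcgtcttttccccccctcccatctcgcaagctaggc
The Myog window (chr1:134289754-134290003, plus strand) held E-boxes 138 and 12 bases before the start, a MEF3 motif at 84, a MEF2 core at 63 and CACCC boxes at 174, 169 and 19, of which the pair at 174 and 169 adjoin. The Six4 window shown (chr12:73113246-73113495, minus strand) held a MEF3 motif at 97 and a CACCC box at 247, and the other Six4 window, which overlaps it, held 3 CACCC boxes and no MEF3 motif. The first of 3 Mef2c windows (chr13:83503784-83504033, plus strand) held E-boxes at 234 and 100, a MEF2 core at 145, a MEF3 motif at 248 and a CACCC box at 11. The Mef2d window (chr3:88142122-88142371, plus strand) held CACCC boxes at 232 and 149 and none of the other motifs. Of 32851 promoter windows of the same length, 66.2% held an E-box, 34.4% a MEF2 core, 3.49% the MEF3 motif and 52.0% a CACCC box. The glucocorticoid receptor half-site AGAACA, in 16.1% of all windows, was in none of the 4 windows shown and in 1 of the 10 member windows, the third of Mef2c, at 197. A match is a run of letters and not a measured binding site.

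Among partners and antagonists of the myogenic factors, inhibitors of basic helix-loop-helix proteins changed in both directions. Of 16 inhibitors tested, 3 rose and 5 fell in KO, against 5.69% and 4.55% of all features, and 1 rose and 2 fell in WT, against 5.04% and 5.64%. Msc (musculin, a repressor of MyoD targets) rose 2.61-fold in KO and 3.36-fold in WT, and its levels did not overlap, at -2.80 to -2.35 in KO dexamethasone against -4.37 to -3.67 in KO vehicle, and -2.68 to -2.41 in WT dexamethasone against -4.85 to -3.92 in WT vehicle. Bhlhe41, a clock-linked repressor, fell 2.83-fold in KO and 2.15-fold in WT, and Hes1, a Notch effector, fell 1.63-fold and 1.40-fold. Heyl (1.53-fold, a Notch effector), Id4 (1.65-fold) and Bhlhe40 (1.39-fold) fell in KO, and Id3 (1.80-fold) and Twist2 (1.69-fold) rose in KO. Id proteins take up E-proteins. In WT the same probes moved in the same directions without a call. The WT log2 changes were -0.31 for Heyl, -0.47 for Id4, -0.31 for Bhlhe40, 0.69 for Id3 and 0.36 for Twist2. Each of these genes was called averaged over genotypes, and the interaction called no inhibitor. Second probes gave -1.24 for Bhlhe41 in KO and -2.05 in WT, and -0.61 for Id4 in KO, the second probe of Heyl also fell in KO (adjusted p = 0.00013), all called, and Id4 also passed in WT with its second probe (-0.67, adjusted p = 0.00616). Of 3 E-proteins, Tcf4 fell 1.27-fold in KO and 1.33-fold in WT (adjusted p = 0.0491 and 0.0222), and its second probe passed in neither. The median log2 change of the inhibitors was -0.09 in KO and -0.07 in WT, against 0.08 and -0.08 over all features.

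Among cofactors and regulators of Six4 and the MEF2 proteins, Eya1 rose in KO, Six5 fell in KO and Hdac4 fell in both genotypes. Of 13 other lineage regulators tested, 1 rose and 1 fell in KO, against 5.69% and 4.55% of all features, and 0 passed in WT, against 10.7%. Eya1, a cofactor of Six4 and its relatives, rose 1.53-fold in KO (adjusted p = 0.00816), and Six5 fell 1.48-fold in KO (adjusted p = 0.0025), while Eya4 fell 1.28-fold averaged over genotypes and its second probe did not pass (-0.18, adjusted p = 0.286). In WT the log2 change was 0.32 for Eya1 (adjusted p = 0.151) and -0.16 for Six5 (adjusted p = 0.359). Both genes were called averaged over genotypes, and the interaction called neither. Six5 was also the member of this list called for KO against WT under dexamethasone, at -1.75 ± 0.16 in KO against -1.28 ± 0.13 in WT (SD, n = 4 each), a log2 difference of -0.47 (adjusted p = 0.0274). Of 20 MEF2 regulators, 1 rose and 1 fell in KO, against 5.69% and 4.55% of all features, and 0 rose and 1 fell in WT, against 5.04% and 5.64%. Hdac4, a class IIa deacetylase that represses MEF2, fell 1.89-fold in KO (adjusted p = 0.0012) and 1.81-fold in WT (adjusted p = 0.00214). Its levels did not overlap, at 0.55 to 0.85 in KO dexamethasone against 1.43 to 1.83 in KO vehicle, and 0.46 to 1.20 in WT dexamethasone against 1.51 to 1.75 in WT vehicle. Mapk7 (ERK5), a kinase that activates MEF2, rose 1.28-fold in KO, and its other probe (0.31) did not pass. Prkd1 (1.38-fold) and Sik1 (1.58-fold) rose averaged over genotypes.

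Among targets of the myogenic factors and of MEF2, Cdkn1a, Musk and Jun rose and Ppargc1a and Lmod3 fell in both genotypes. Of 23 targets of the myogenic factors, 2 rose and 0 fell in KO, against 5.69% and 4.55% of all features, and 3 rose and 0 fell in WT, against 5.04% and 5.64%. Cdkn1a, a cell-cycle inhibitor, rose 4.93-fold in KO and 7.85-fold in WT, with levels of 2.38 to 2.79 in KO dexamethasone against -0.07 to 0.84 in KO vehicle, and 2.58 to 3.30 in WT dexamethasone against -0.12 to 0.29 in WT vehicle. Musk, the agrin co-receptor of the neuromuscular junction, rose 3.21-fold in KO and 3.14-fold in WT, and Gadd45a, a growth arrest gene, rose 1.42-fold in WT (adjusted p = 0.0316). The list median was 0.00 in KO and -0.16 in WT, against 0.08 and -0.08 over all features. Of 17 MEF2 targets, 1 rose and 2 fell in each genotype, against 10.2% of all features called in KO and 10.7% in WT. Jun rose 1.69-fold in KO and 1.83-fold in WT, Lmod3, a thin-filament nucleator, fell 1.29-fold in each, and Ppargc1a (PGC-1 alpha), the coactivator of mitochondrial genes, fell 1.47-fold in KO and 1.80-fold in WT. Klhl31 fell 1.23-fold averaged over genotypes, and its second probe did not pass (-0.08, adjusted p = 0.877). For KO against WT, Ppargc1a was 1.46-fold higher in KO under dexamethasone (adjusted p = 0.0257), and averaged over treatments Slc2a4 (GLUT4) was 1.24-fold lower and Ppargc1a 1.31-fold higher in KO. The list median was 0.07 in KO and 0.01 in WT with dexamethasone.

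**Figure D4:**
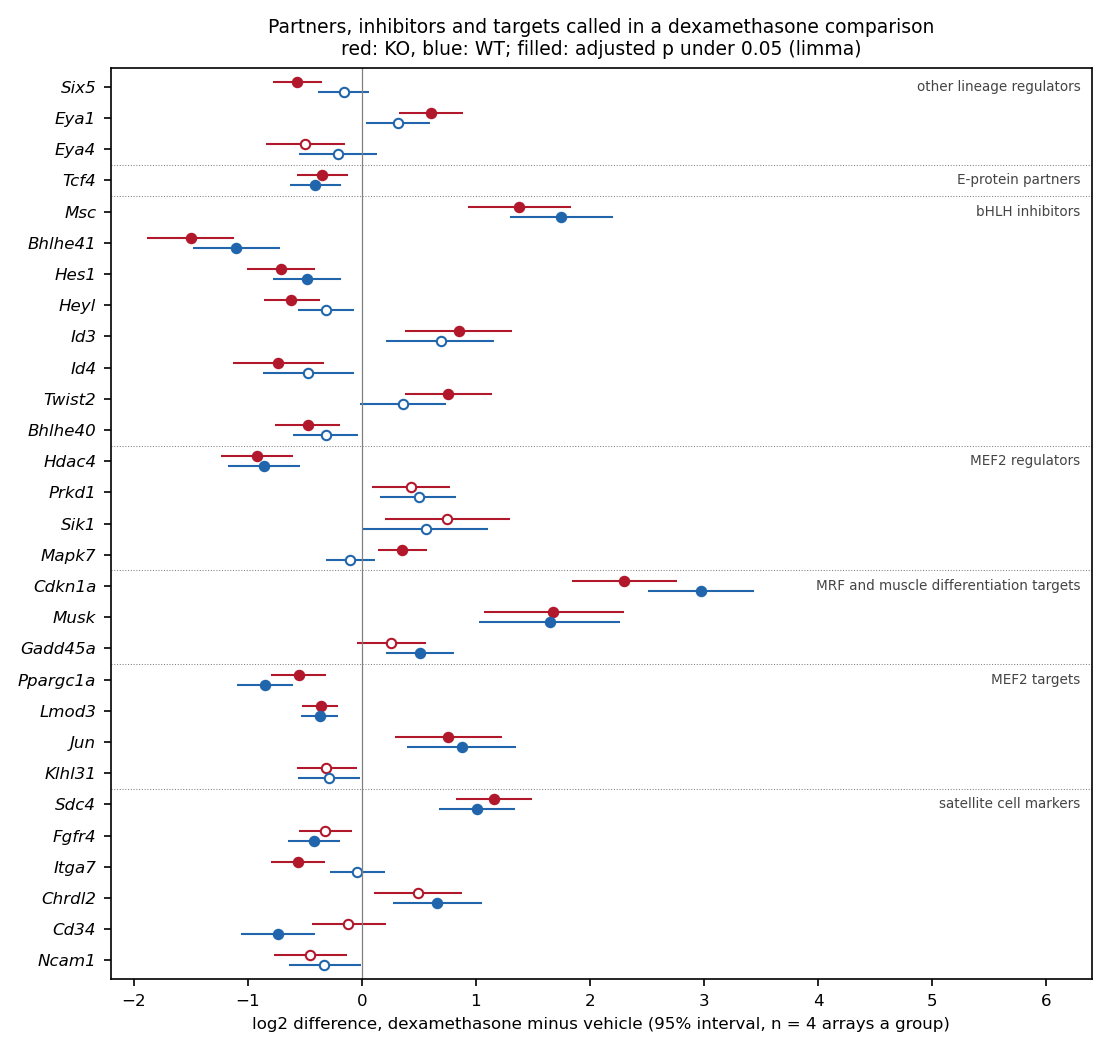
Log2 change with dexamethasone, with 95% intervals and n = 4 arrays a group, of the listed partners, inhibitors, regulators, targets and satellite cell markers that were called in a dexamethasone comparison, in KO (red) and WT (blue); filled points have an adjusted p under 0.05 in limma. Cdkn1a has the largest rises, 2.30 and 2.97, and Bhlhe41 the largest falls, -1.50 and -1.10.

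Of the 15 satellite cell markers tested, a list that holds Pax7, 1 rose and 2 fell in KO, against 5.69% and 4.55% of all features, and 2 rose and 2 fell in WT, against 5.04% and 5.64%. Sdc4 (syndecan 4) rose 2.24-fold in KO and 2.01-fold in WT, with a second probe at 1.36 (adjusted p = 0.0123) and 0.45 (adjusted p = 0.444). Chrdl2 rose 1.58-fold in WT. Heyl and Itga7 (1.47-fold) fell in KO, Cd34 (1.66-fold) and Fgfr4 (1.34-fold) fell in WT, and Ncam1 fell 1.31-fold averaged over genotypes, where no other probe of it passed in either genotype. The uncalled log2 changes were -0.31 for Heyl and -0.04 for Itga7 in WT. In KO they were -0.12 for Cd34, -0.32 for Fgfr4 and 0.49 for Chrdl2. The interaction called no satellite cell marker. The summed level of the 15 markers ranged from 38.3 to 41.2 in KO dexamethasone, 39.2 to 43.5 in KO vehicle, 33.0 to 39.5 in WT dexamethasone and 40.8 to 46.3 in WT vehicle muscle, as multiples of the 75th percentile. In whole-muscle RNA, fewer cells of a type and less RNA per cell cannot be told apart.

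Markers of other cells moved in the same comparisons. With dexamethasone in KO, 4 of 8 endothelial markers (Tek, Tie1, Pecam1 and Kdr) were called lower and none was called higher, against 4.55% of all features lower. The list median was -0.34 in KO, against 0.08 over all features. The summed level of the list did not fall with these markers, at 27.2 to 35.1 in KO dexamethasone against 24.8 to 33.3 in KO vehicle arrays. In WT 0 of the 8 endothelial markers were called. With dexamethasone in WT, 4 of 7 macrophage markers (Adgre1, C1qc, Folr2 and Csf1r) were called lower and none was called higher, against 5.64% of all features lower. The summed level was 6.31 to 8.54 in WT dexamethasone against 10.1 to 14.7 in WT vehicle arrays. In KO 0 of the 7 macrophage markers were called. The list median was nevertheless -0.39 in KO, against 0.08 over all features, and -0.63 in WT, against -0.08. Averaged over genotypes 4 macrophage markers were called lower, against 17.2% of all features called, and the interaction called 0. Every endothelial and macrophage marker was well above background on all 16 arrays, so none was at 0. Of 6 smooth muscle and pericyte markers, Notch3 fell in both genotypes (2.11-fold in KO, 1.74-fold in WT) and Myh11 rose in WT (1.67-fold). Of 6 fibroblast markers 1 was called, Lum, which fell 1.72-fold in KO and 2.24-fold in WT, with list medians of 0.09 and -0.33. Of 6 lymphocyte markers 1 was called, Cd247, which fell 6.12-fold in KO and 3.75-fold in WT, with list medians of -0.40 and -0.63. Their part in the results above was not tested.

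For the 4 genes called in at least 1 comparison, the 3 features nearest in pattern over the 16 arrays were found by the mean absolute difference of levels centred on their own mean. For Mef2c these were Hspb3 (0.101 log2 units), Aak1 (0.111) and Dhcr7 (0.111), against a median of 0.338 over features. For Myf6 they were Mast2 (0.091), Adpgk (0.103) and Ptpn1 (0.112), against 0.466. For Mef2d they were Lrsam1 (0.099), Jph1 (0.105) and Vtn (0.111), against 0.332. For Six4 they were Ppp2r1a (0.106), Cand2 (0.106) and Rps6ka2 (0.109), against 0.318. A feature with the same level on all arrays would lie 0.232 from Mef2c, 0.396 from Myf6, 0.221 from Mef2d and 0.204 from Six4. Hspb3 is a small heat shock protein of muscle, Ptpn1 a phosphatase that acts on the insulin receptor, and Jph1 a protein of the triad membrane. The Myf6 neighbours rose with dexamethasone in both genotypes, by 0.86 in KO and 0.68 in WT for Mast2, 0.73 in KO and 0.76 in WT for Adpgk, and 0.78 in KO and 0.63 in WT for Ptpn1. All of these were called, which follows from how they were chosen.

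**Figure D5:**
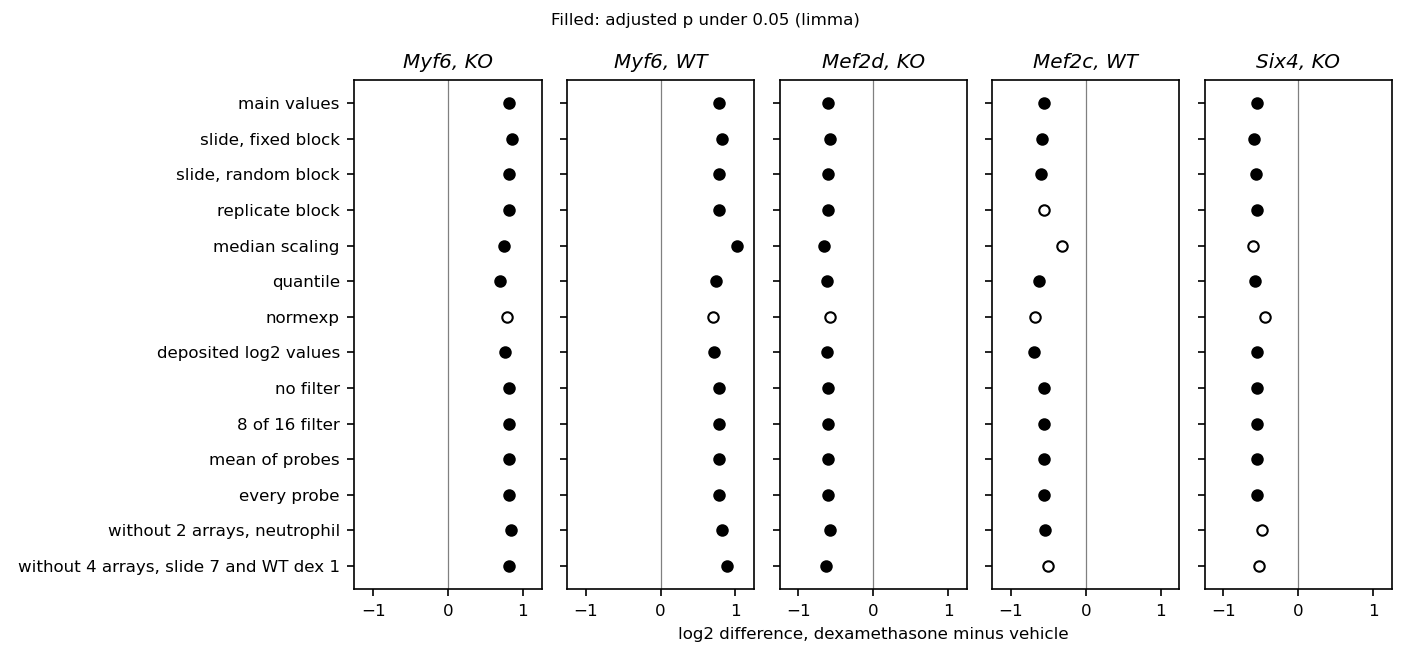
Log2 change with dexamethasone of the member results called within a genotype, under the main and the alternative settings (rows); filled points have an adjusted p under 0.05 in limma, and each panel has the same horizontal axis. Every point keeps the sign of the main value, and open points fall most often for Mef2c in WT and Six4 in KO.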

How the data were processed

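RNA of 16 quadriceps was hybridised to 1-colour Agilent 4x44K arrays. The deposited scanner files hold spot intensity, background-subtracted and spatially detrended by Feature Extraction with a grid of build mm9, per the file headers. The authors also deposited log2 values for these arrays in a series table, with column medians of 6.849 to 6.867. Neither labels nor headers state how it was normalized. The sorted values of each array lay within 0.0731 of the mean sorted values, so its scaling is close to quantile normalization. The deposited values and quantile normalization are therefore not independent alternatives. Groups were read from sample titles, and 4 animals per group are stated in the series design.

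Each array's processed signal was put on a log2 scale and its 75th percentile among non-control probes subtracted. Control and outlier spots were left out, only probes above background (Feature Extraction's call) on 4 or more of 16 arrays were tested, and the brightest stood for each gene. Accessions were matched to RefSeq symbols of GRCm38.p6, used for names only, and 24844 of 41174 probes were named. Tests used limma 3.58.1 in R 4.3.3 with 4 group means, eBayes and adjustment over 25196 features. Alternatives were slide blocks, a replicate block, median and quantile scaling, the deposited values, other filters and probe rules, leaving out arrays, and normexp (offset 50), which used the median signal because the files hold no mean signal column. Leaving out slide 7 and WT dexamethasone array 1 was chosen after seeing the data. The fit was tested on simulated data. Of 8 slides, 5 held more than 1 group. Same-numbered arrays correlated from -0.66 to 0.66 in their deviations from group means (median -0.04, 24 pairs). These values showed no pairing by number, but they cannot exclude one, because no same-numbered pair shared a slide. Arrays on the same slide correlated from 0.19 to 0.79 (median 0.50, 11 pairs; consensus correlation 0.574 in the random-block fit). Slide is thus a shared batch that the main fit leaves out and that the block fits and within-slide values include.

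The genes, lists and rules were chosen with earlier results of these data known. Genes named from lists are those passing in any comparison, up to 4 per list and comparison by smallest p, so others are counted only; Twist2, Id3, Id4, Bhlhe40 and Ncam1 lie outside this rule and were named after their values were seen. Xirp1, Smpx, Mymx, Lbx1 and Vgll3 are not analysed here.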

Additional observations from a re-analysis of the deposited data

How the results depend on the processing

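Of 56 results (8 genes in 7 comparisons), 8 were called, and no called result changed sign under any alternative run. All 8 kept their call with slide as a fixed block, quantile normalization, the deposited log2 values, either filter and either probe rule. The replicate block lost Mef2c in WT (adjusted p = 0.0615) and averaged (0.0576), and gave 1 member called in WT. For KO against WT it gave 190 features (averaged) and 289 features (under dexamethasone). Whether replicate numbers pair the animals is not known. Median scaling lost Mef2c in WT (-0.32) and averaged (-0.28), Mef2d averaged (-0.33) and Six4 in KO (-0.60), called 1 member averaged over genotypes and gained Myog in WT. Normexp kept only Myf6 and Mef2d averaged, called 0 members in KO and 0 in WT, and lost Mef2d in KO (-0.57) and Mef2c in WT (-0.68). Without slide 7 and WT dexamethasone array 1, Mef2c in WT, Mef2c averaged and Six4 in KO were lost, with 1 member called in WT. The deposited values called 1 member, Myog, for KO against WT under dexamethasone, and 1 feature for the interaction. Without the neutrophil-marked arrays, Mef2c averaged (-0.31, adjusted p = 0.0776) and Six4 in KO (-0.48, adjusted p = 0.0569) were lost. The random block gained Six4 averaged (-0.30, adjusted p = 0.0139), and leaving out WT dexamethasone array 2 gained Myod1 for KO against WT under dexamethasone (-1.99) and averaged (-1.16). That fit also gained Myod1 with dexamethasone in WT and lost Mef2c in WT. Leaving out KO vehicle array 4 gained Myog for KO against WT under dexamethasone. Several other fits with 1 array left out lost Mef2c in WT or Six4 in KO, as listed above for each gene. Why these calls changed was not tested.

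Members called ranged, with 1 array left out, from 1 to 2 in WT, 2 to 3 in KO, 3 to 3 averaged, 0 to 0 for KO against WT under vehicle and the interaction, and 0 to 1 for KO against WT under dexamethasone and averaged. Features called ranged over the same fits from 1631 to 2686 in WT, 1828 to 2707 in KO, 3541 to 4254 averaged, 44 to 70 for KO against WT under vehicle, 280 to 476 under dexamethasone, 230.0 to 340.0 averaged, and 0 to 5 for the interaction.

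The main counts of features called were 2579 in KO, 2692 in WT, 4337 averaged, 66 for KO against WT under vehicle, 463 under dexamethasone, 334 averaged and 0 for the interaction. Normexp gave 414, 193, 965, 17, 49 and 64 in that order without the interaction. Slide as a fixed block gave 767 in WT and 19, 45 and 72 for KO against WT under vehicle, dexamethasone and averaged. The random block gave 5080 in KO, 4052 in WT, 447, 951 and 985 for KO against WT, and 310 for the interaction. Median scaling gave 1436 in KO, and 38, 205 and 171 for KO against WT. Treating every probe as a feature gave 927 under dexamethasone and 529 averaged, leaving out the neutrophil-marked arrays 235 and 200, and leaving out slide 7 and WT dexamethasone array 1 gave 1556 in KO and 43, 174 and 159 for KO against WT.

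The share of called features that were higher with dexamethasone in WT was 47.2%, against 82.1% with median scaling, 57.1% with quantile and 60.6% with normexp, while the all-feature median change was 0.16 with median scaling against -0.08. In KO it was 55.6%, against 45.4% (median) and 44.8% (quantile). For KO against WT under dexamethasone it was 55.5%, against 11.7% (median), 39.4% (quantile), 8.16% (normexp) and 40.5% (deposited).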
